A study of Mus musculus with 6 samples.

Results

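The NR4A and EGR tolerance factors are followed here as a list of 7 named genes: the nuclear receptor genes Nr4a1, Nr4a2 and Nr4a3, the zinc-finger factor genes Egr1, Egr2 and Egr3, and Nab2, which encodes a corepressor that binds EGR proteins. All 7 were found among the 21887 protein-coding genes of the gene table used. Chromatin accessibility was measured by ATAC-seq, where Tn5 transposase places sequencing adapters in open DNA. The cells were immature B cells of the mouse spleen, labelled B220+CD93+. The 3 DTx libraries came from Tcrd-GDL mice that received diphtheria toxin (DTx) intraperitoneally, 15 ng per gram of body weight in each of 2 doses with 48 h between them, and the cells were collected on day 8, counted from the first dose. The 3 untreated libraries came from mice of the same strain that are labelled untreated, so both groups carry the Tcrd-GDL allele. In that line γδ T cells carry the toxin's receptor, and the series set out to compare B cells with and without those cells present. No vehicle injection is named for the untreated mice, so an effect of the injected toxin and an effect of losing γδ T cells cannot be told apart. The labels number the libraries 1 to 3 in each group and do not say whether each is a separate mouse, so a p-value reflects the spread of these samples only, and that spread may be technical.

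NR4A proteins are orphan nuclear receptors whose genes are switched on within a short time of antigen receptor signalling, and in mouse B cells the level of Nr4a1 tracks how strongly a cell has met self antigen. EGR factors are induced by the same signals, through calcium, ERK and serum response factor, and in T cells Egr2 and Egr3 are known for programmes of anergy. Nab2 is itself induced by EGR factors in several cell types and then restrains them.

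Each library is represented by 1 list of peaks, with 44661, 56266 and 60811 peaks in DTx libraries 1, 2 and 3 and 36760, 42504 and 56503 in untreated libraries 1, 2 and 3. DTx library 1 and untreated library 3 have the narrow layout of the peak caller and the other 4 lists its broad layout, in which neighbouring peaks are joined. A peak's strength is given as its percentile of −log10 q within its own list, where a high value is a strong peak. It describes the peak and, since the lists differ in length, shows no change between libraries by itself. Equal-length lists hold the 36760 strongest peaks of each library, the length of the shortest list. A region is a stretch of the genome under a peak of any of the 6 lists, with overlapping peaks merged. The B lineage markers Cd79a, Cd79b, Pax5, Ebf1 and Cd93 each had a peak within 1 kb of a gene end in all 6 libraries. Markers of other cells were counted in the same way. T cell markers numbered 1 to 3 in DTx and 1 to 2 in untreated libraries of 5 in the table, with Cd3e and Cd8a at 0. NK and cytotoxic markers numbered 1 of 4 in every library (Ncr1, Klrb1c and Gzma at 0), myeloid markers 1 to 2 of 5 in both groups (Lyz2, S100a8 and Mpo at 0), dendritic markers 3 of 4 (Itgax at 0) and erythroid and megakaryocyte markers 2 of 4 (Gata1 and Hba-a1 at 0). Their part in the results below was not tested. A 0 here means no peak within 1 kb of a gene end, and peaks elsewhere in a gene were not counted.

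The promoters are shown first, because the strongest peak within 1 kb of their start sites is compared between the members that have a promoter entry. RefSeq's promoter sequences on GRCm38.p6, the build of the files (mm10), cover 250 bases before to 50 from each start site, and 5 of the 7 members matched, with Egr1 and Egr3 named only. Capitals mark the core of the cAMP response element, TGACG on either strand, which CREB family factors bind, and the CArG box, to which serum response factor binds.
Nr4a1 (chr15:101266596-101266895, + strand): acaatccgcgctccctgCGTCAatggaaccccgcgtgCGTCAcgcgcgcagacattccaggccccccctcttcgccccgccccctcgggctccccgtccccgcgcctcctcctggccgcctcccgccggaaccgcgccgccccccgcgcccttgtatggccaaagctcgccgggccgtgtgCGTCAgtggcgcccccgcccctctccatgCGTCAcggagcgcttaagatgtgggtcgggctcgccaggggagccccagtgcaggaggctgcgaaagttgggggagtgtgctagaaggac
Nr4a2 (chr2:57123954-57124253, - strand): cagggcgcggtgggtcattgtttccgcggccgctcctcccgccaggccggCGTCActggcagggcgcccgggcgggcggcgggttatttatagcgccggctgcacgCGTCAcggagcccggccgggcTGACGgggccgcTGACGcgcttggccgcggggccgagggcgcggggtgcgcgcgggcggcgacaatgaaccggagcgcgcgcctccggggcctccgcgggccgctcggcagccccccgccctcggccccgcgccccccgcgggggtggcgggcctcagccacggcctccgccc
Nr4a3 (chr4:48045055-48045354, + strand): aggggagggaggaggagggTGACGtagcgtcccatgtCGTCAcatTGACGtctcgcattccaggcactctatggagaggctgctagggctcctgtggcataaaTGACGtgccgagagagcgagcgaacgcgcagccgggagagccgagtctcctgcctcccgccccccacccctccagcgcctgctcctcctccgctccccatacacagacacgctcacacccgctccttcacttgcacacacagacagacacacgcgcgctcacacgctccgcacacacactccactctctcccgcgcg
Egr2 (chr10:67537619-67537918, + strand): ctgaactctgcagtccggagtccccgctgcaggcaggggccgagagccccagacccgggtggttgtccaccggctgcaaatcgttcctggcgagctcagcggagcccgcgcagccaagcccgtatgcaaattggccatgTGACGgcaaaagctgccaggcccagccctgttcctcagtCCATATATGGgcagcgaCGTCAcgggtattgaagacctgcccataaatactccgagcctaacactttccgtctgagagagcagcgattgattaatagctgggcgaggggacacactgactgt
Each of the 3 NR4A promoters held 4 cores of the cAMP response element. Their first bases stood at -233, -213, -69 and -40 from the start site in Nr4a1, at -200, -144, -123 and -111 in Nr4a2, and at -231, -213, -205 and -147 in Nr4a3. Of 32534 distinct promoters of the same length, 20.9% held at least 1 core and 0.234% held at least 4. The share of G and C was 72.3%, 81.7% and 64.7% in Nr4a1, Nr4a2 and Nr4a3, against a median of 53.0% over all promoters. The Nab2 promoter, at 74.0% G and C, held neither motif. Egr2 has 5 start sites in the table, and the printed promoter belongs to the one at 67537869, shown because it lies under the peak of every library and holds both motifs. It held 2 cores and, between them, 1 CArG box, a motif found in 1.64% of promoters. Its 2 nearest neighbours, at 67537870 and 67537930, overlap it and held the same numbers. The promoter of the start site at 67537566, which the peak covered in full in every library, held 1 CArG box and no core, and that of the earliest, at 67535499, held neither at 72.0% G and C. The full element TGACGTCA (1.80% of promoters), the NBRE AAAGGTCA that NR4A monomers bind (1.52%) and the AP-1 site TGANTCA (7.79%), each searched on both strands, were in none of the promoters of these 5 genes. An EGR site, written GCGTGGGCG or GCGGGGGCG and present in 3.50% of promoters, occurred at 1 place, in Nr4a1. These are letter matches and not measured binding, and the motifs were chosen with the sequences in view.

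At the start sites the members ran from among the strongest peaks of the lists to the middle of them. Egr2, at the top, had its start-site peak at percentiles 96.5, 97.5 and 97.1 in DTx libraries 1, 2 and 3 and at 97.8, 98.3 and 98.4 in untreated libraries 1, 2 and 3. That peak covered the printed Egr2 promoter over at least 297 of its 300 bases in every library, whereas the earliest start site of the gene, at 67535499, lay under no peak in any library. Nr4a3 was at 90.1 and 91.1 in DTx libraries 2 and 3, with no start-site peak in DTx library 1, and at 88.8, 89.6 and 63.7 in untreated libraries 1, 2 and 3. Those peaks covered the 300 promoter bases only in part. They covered 88 and 204 in DTx libraries 2 and 3 and 103, 139 and 249 in untreated libraries 1, 2 and 3. Nr4a1 was at 79.9, 80.3 and 82.6 in DTx libraries and at 80.2, 76.7 and 86.3 in untreated libraries. Nab2 was at 60.5, 70.7 and 76.3 in DTx libraries and at 51.5, 69.1 and 77.4 in untreated libraries. Nr4a2 was the weakest, at 58.7, 53.4 and 51.8 in DTx libraries and at 54.6, 62.0 and 62.1 in untreated libraries. For Nr4a1, Nab2 and Nr4a2 the peak covered all 300 promoter bases, except in DTx library 1. There it covered 300 for Nr4a1, 57 for Nab2 and 173 for Nr4a2. Over the 6 libraries the Egr2 range stood above that of each of the other 4 genes, and the Nr4a1 range stood above that of Nr4a2. The ranges of Nr4a1 and Nab2 overlapped, as did those of Nab2 and Nr4a2 and, through untreated library 3 and DTx library 1, those of Nr4a3 with the other 3.

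The order depended on the measure of strength. The authors' fold enrichment was 10.6, 4.46 and 4.23 at the Nr4a2 start site in DTx libraries 1, 2 and 3 and 4.68, 6.59 and 10.5 in untreated libraries 1, 2 and 3. At the Egr2 start site it was 12.3, 6.12 and 6.02 in DTx and 6.25, 7.25 and 13.0 in untreated libraries. Nr4a1 had 12.2, 5.03 and 4.14 in DTx and 5.92, 4.80 and 12.4 in untreated libraries, and Nab2 had 4.93, 3.13 and 3.21 in DTx and 2.94, 3.36 and 6.01 in untreated libraries. In each of these 4 genes the 2 highest values were those of the narrow lists, 1 from each group. Nr4a3 had 3.46 and 3.42 in DTx libraries 2 and 3 and 3.57, 3.56 and 3.36 in untreated libraries, so by fold enrichment it stood below Nr4a2 in each of those 5 libraries, whereas by −log10 q it stood above it in all 5.

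**Figure D1:**
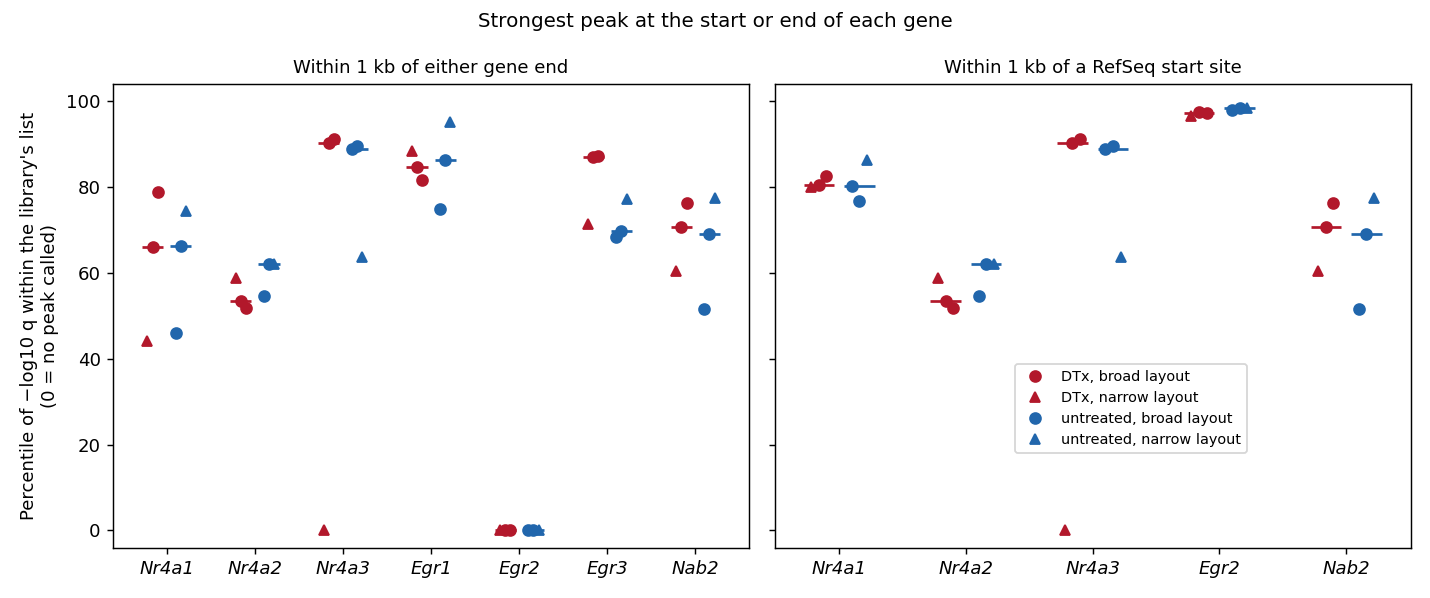
The vertical axis is the percentile of −log10 q of the strongest peak within 1 kb of a gene end (left) or of a RefSeq start site (right), with 0 where no peak was called; points are libraries, circles the broad and triangles the narrow layout, and bars the group medians. Egr2 is at 0 on the left and between 96.5 and 98.4 on the right, and Nr4a3 is at 0 in DTx library 1 only.

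Measured from the ends of the whole gene instead, within 1 kb of either, 6 of 7 members were called in DTx libraries 2 and 3 and 5 in DTx library 1, against 6 in each untreated library, a mean of 5.67 ± 0.58 against 6 ± 0 (SD, n = 3 each). A peak at a gene end was present in all 6 libraries for Nr4a1, Nr4a2, Egr1, Egr3 and Nab2, as for 49.2% of all protein-coding genes. The member never called was Egr2, since its extent in the table begins at 67534469, 3.40 kb before the start site of its peak, and the peak began at 1.59 kb or more from that end. Nr4a1 was called through a weaker peak at its lower-coordinate end, with its summit at -12846 bp from the start site in DTx library 1 and at -12789 bp in untreated library 3, at percentiles 44.0, 65.9 and 78.8 in DTx and 45.9, 66.3 and 74.3 in untreated libraries. Egr1, which had no start site in the promoter table, reached 88.4, 84.7 and 81.5 in DTx and 74.9, 86.3 and 95.0 in untreated libraries. Egr3, likewise without one, reached 71.4, 86.9 and 87.2 in DTx and 68.4, 69.7 and 77.1 in untreated libraries. The groups overlapped for both. Ordered by their median over the 6 libraries, the genes ran Nr4a3 (89.2), Egr1 (85.5), Egr3 (74.2), Nab2 (69.9), Nr4a1 (66.1), Nr4a2 (56.7) and Egr2 (0), and apart from Egr2 each neighbour in that order overlapped the next. By the within-list percentile of fold enrichment Nr4a2 led with a median of 52.9 and Nr4a1, at 11.3, was the lowest of the 6 genes with a gene-end peak. The median −log10 q percentile over the 10775 genes called in all 6 libraries was 84.4, so Nr4a1, Nr4a2, Egr3 and Nab2 lay below it and Egr1 close to it.

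Across the groups, 1 member was called at the gene end in unequal numbers of libraries, Nr4a3 in 2 of 3 DTx and 3 of 3 untreated libraries. Of all protein-coding genes 7.37% differed in that sense. For no member did the calls split completely between the groups, where 0.0366% of genes were DTx-only and 0.00457% untreated-only. The Nr4a3 difference lay between the 2 narrow lists. The 4 broad lists each gave 1 long peak, 2488 bp in DTx library 2, 2606 bp in DTx library 3, 2487 bp in untreated library 1 and 2541 bp in untreated library 2, that began near 48042653 and stopped short of the start site at 48045305. The narrow lists resolved an upstream peak, 48042655 to 48043754 in DTx library 1 (percentile 92.2) and 48042657 to 48043773 in untreated library 3 (94.1). The second, next to the start site (48044304 to 48045303, percentile 63.7, summit at -180 from the start site), was called in untreated library 3 and not in DTx library 1. The 2 genes most like Nr4a3 over the 6 libraries, by the mean absolute difference of the gene-end percentile, were Acbd4 and Plcd3 (6.56 each), which share 1 peak and were at 0 in DTx library 1 too. For Egr2, 8953 genes were likewise at 0 in every library, so none is named.

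Widths of the start-site peaks varied within each group as well as between them. The Nr4a1 start-site peak measured 496, 1299 and 1519 bp in DTx libraries 1, 2 and 3 and 463, 1371 and 1516 bp in untreated libraries 1, 2 and 3. For Egr2 the widths were 884, 1826 and 1894 bp in DTx and 956, 899 and 2019 bp in untreated libraries. The groups overlapped for both genes. In the narrow lists the Nr4a1 summit stood at -23 bp from the start site in DTx library 1 and in untreated library 3 alike. The Nr4a2 summit stood at -164 bp in DTx library 1 and at -193 bp in untreated library 3, and the Nab2 summit at -358 bp and -1590 bp in the same pair.

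Around the genes, in each gene and 50 kb to each side, there were 84 regions over the 7 members. All 6 libraries had a peak in 47 of them (56.0%), against 44.1% of all 70174 regions. The number per gene ranged from 5 around Nr4a2 to 20 around Nr4a1, where the median protein-coding gene had 7, and 97.0% of genes had fewer than Nr4a1. The other members had 10 (Nr4a3), 11 (Egr2), 12 each (Egr1 and Nab2) and 14 (Egr3). These windows also hold other genes, such as Stat6, whose extent overlaps that of Nab2, and the predicted gene LOC105244150, which overlaps Nr4a2.

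**Figure D2:**
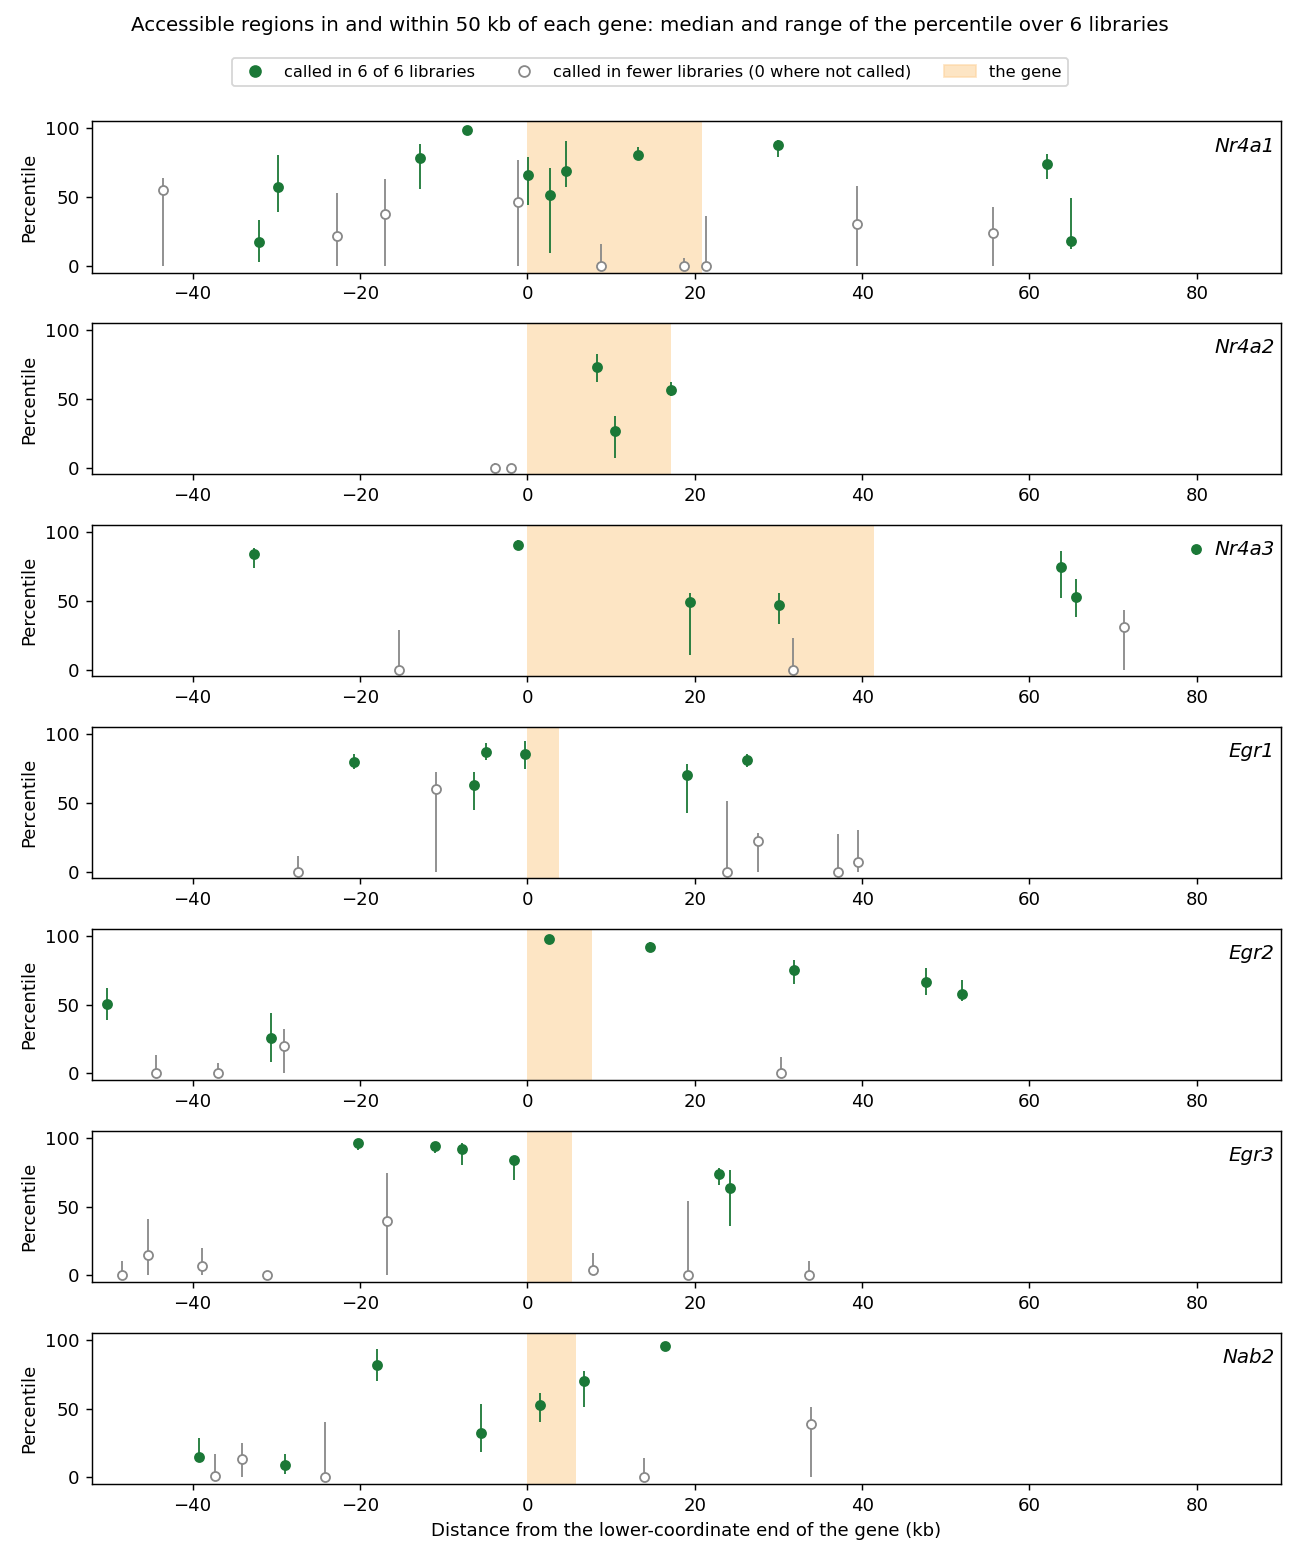
Each panel is 1 gene, with distance from its lower-coordinate end (kb) across and the within-list percentile of −log10 q upwards; points are regions at the median over 6 libraries, lines span the lowest to the highest library, and filled green points were called in all 6. Nr4a1 has 20 regions and Nr4a2 has 5, and the 3 strong regions of Egr3 lie outside the gene on its lower-coordinate side.

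By median percentile the strongest regions of Nr4a1, Egr1, Egr3 and Nab2 lay outside the gene. For Egr1 that region was close to the gene-end region (86.8 against 85.5). For Nr4a1 the strongest was at chromosome 15, 101246048 to 101247336, 6.57 kb from the gene and at -20.2 kb from the start site, with a median percentile of 98.6 (lowest 96.6, highest 99.1 over 6 libraries). It exceeded the start-site region, which had a median of 80.2, in every library. A further 2 regions inside the gene, 101256114 to 101257137 and 101258195 to 101258913, had medians of 51.2 and 69.2. For Nr4a2 both remaining regions called in all 6 libraries lay inside the gene, 57114570 to 57115690 with a median of 73.3 and 57116814 to 57117816 with 26.4. The strongest region of Nr4a3 ran from 48042653 to 48045303, just before the start site (90.6). In both narrow lists its value came from the upstream peak. Next were a region at 48124431 to 48125526 in the neighbouring gene Stx17 (87.6) and another at 48011950 to 48012902, 32.2 kb from the gene on its lower-coordinate side (83.8).

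Egr3 had 3 regions on chromosome 14 at its lower-coordinate side that were stronger than its gene-end region (83.9): 70056394 to 70057770 (96.6, within Pebp4), 70065572 to 70066995 (94.0) and 70068999 to 70069958 (92.3), at 19.5, 10.3 and 7.36 kb from the gene. No peak lay inside Egr3 in any library. For Egr1, on chromosome 18, the region 34855885 to 34856670, 4.54 kb from the gene, had a median of 86.8 and the gene-end region, 34859801 to 34861955, one of 85.5. Around Egr2 the start-site region, chromosome 10 from 67536062 to 67538080, led with 97.6, and the next, 67548545 to 67549804, lay 6.36 kb away in the gene Ado (91.7). For Nab2 the strongest regions belonged by position to its neighbours, 127676518 to 127678220 in Nemp1 (95.8) and 127641878 to 127644126 in Stat6 (82.0), and its own start-site region had a median of 69.9. The gene table has no exons, so exons, introns and untranslated parts were not told apart.

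None of the 84 regions was DTx-only, with a peak in each DTx library and in no untreated one, or untreated-only, where 0.705% of all regions were DTx-only and 0.0242% untreated-only. Of the regions missing from some library, 24 were called in more DTx than untreated libraries, 2 in more untreated libraries and 11 in equal numbers. The first 2 counts are 28.6% and 2.38% of the 84, beside 36.4% and 8.80% of all regions. Such counts move with the length of a list. Of the 13 regions called in 1 library, 9 came from DTx library 3, which has the longest list. In the equal-length lists 1 region was DTx-only, at chromosome 15, 101309100 to 101309899, 34.3 kb beyond Nr4a1, where all regions gave 0.255%. Its equal-length percentiles were 6.30, 10.2 and 4.79 in DTx libraries 1, 2 and 3, close to the floor of the lists, and in the deposited lists it was also called in untreated libraries 2 and 3. The reverse held for 1 region, 101317943 to 101319875, 43.1 kb from Nr4a1, at 12.1, 10.5 and 21.5 in untreated libraries 1, 2 and 3 (0.402% of all regions), and in the deposited lists it was called in all 6 libraries.

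Of the 84, 40 regions were in all 6 equal-length lists, and for 36 of them the percentiles of the DTx and untreated libraries overlapped. The groups stood apart for 4, and they are given as values with no test. Higher in every DTx library were the regions inside Nr4a2, next to Egr3 and beyond Nr4a3, where 3.26% of all such regions stood higher. The region inside Nr4a2 (57114570 to 57115690) was at 66.2, 74.1 and 71.6 in DTx and 65.2, 56.2 and 60.9 in untreated libraries, so that DTx library 1 and untreated library 1 lay close together. The region reaching the gene end of Egr3 was at 78.7, 79.9 and 78.9 in DTx and 69.8, 64.9 and 77.5 in untreated libraries. A region takes the value of its strongest peak. In DTx library 1 and untreated libraries 1 and 3 that peak lay more than 1 kb from Egr3. Within 1 kb of the gene end, the equal-length percentiles were 65.2, 79.9 and 78.9 in DTx and 68.4, 64.9 and 64.8 in untreated libraries. There the groups overlapped. The region 22.1 kb beyond Nr4a3 (48108529 to 48109278) was at 67.1, 66.6 and 77.0 in DTx and 51.9, 63.1 and 64.8 in untreated libraries. Lower in every DTx library was the start-site region of Egr2, at 95.8, 96.2 and 95.3 in DTx and 97.8, 98.1 and 97.5 in untreated libraries, where 5.72% of all such regions stood lower. ATAC-seq of a cell population does not tell a site open in fewer cells from one less open in each cell.

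**Figure D3:**
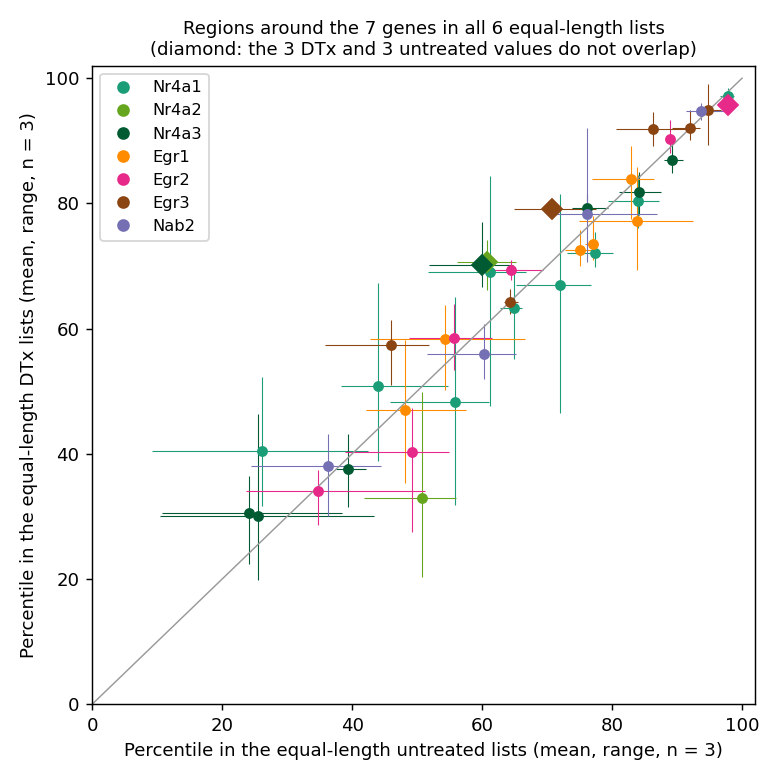
Points are the 40 regions around the 7 genes that are in all 6 equal-length lists, with the mean percentile of the 3 DTx lists upwards and of the 3 untreated lists across, lines from the lowest to the highest library and colours by gene. Diamonds mark the 4 regions whose groups do not overlap, and the diagonal marks equal values.

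The test of the comparison was made on open bases, the bases under peaks of the equal-length lists in the gene and 50 kb to each side, scaled to the same total in each library. Open bases covered 21.4, 24.9 and 26.1 Mb in DTx libraries 1, 2 and 3 and 22.3, 24.1 and 28.4 Mb in untreated libraries 1, 2 and 3 before scaling. No member passed. limma's adjusted p was 0.997 or above for each of the 7 genes, and over all 16381 genes tested it called 0% higher and 0% lower in DTx at an adjusted p of 0.05. At an unadjusted p under 0.05 limma had 626 genes (3.82%), and no member was among them.

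Nab2 had the largest difference, with 5.88, 6.58 and 6.28 kb open in DTx libraries 1, 2 and 3 and 8.52, 8.28 and 6.11 kb in untreated libraries 1, 2 and 3. The groups overlapped through untreated library 3, and the log2 fold change on the log2(bases + 100) scale was -0.27 ± 0.14 (SE, limma, unadjusted p = 0.0898, adjusted 0.997), with -0.38 among the broad and -0.06 among the narrow lists. Nr4a1 had the most open bases, 6.85, 9.50 and 11.2 kb in DTx and 9.22, 10.5 and 10.4 kb in untreated libraries, more than 98.2% of genes tested on average. Its log2 fold change was -0.15 ± 0.17 (SE), with 0.07 among the broad and -0.60 among the narrow lists. The narrow value sets 1 DTx library against 1 untreated library, so layout and single library cannot be told apart there. Without DTx library 1 the log2 fold change was 0.04, and without untreated library 3 it was -0.12. Nr4a2 had the fewest, 1.68, 2.41 and 1.73 kb in DTx and 2.71, 2.15 and 1.87 kb in untreated libraries, with a log2 fold change of -0.20 ± 0.20 (SE; broad -0.23, narrow -0.14).

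For Nr4a3 the open bases were 5.37, 5.85 and 6.14 kb in DTx and 6.91, 5.99 and 6.30 kb in untreated libraries, a log2 fold change of -0.14 ± 0.10 (SE; broad -0.10, narrow -0.23). Egr1 had 4.88, 5.15 and 5.80 kb in DTx and 4.94, 5.34 and 5.22 kb in untreated libraries, and Egr3 had 5.41, 6.05 and 6.75 kb in DTx and 5.85, 6.41 and 5.90 kb in untreated libraries. Their log2 fold changes were 0.03 ± 0.10 and -0.0009 ± 0.11 (SE), with 0.09 and 0.06 among the broad and -0.09 and -0.13 among the narrow lists. Egr2 had 3.90, 4.67 and 4.76 kb in DTx and 4.76, 3.94 and 5.57 kb in untreated libraries, with -0.09 ± 0.15 (SE; broad 0.12, narrow -0.51). In all 7 genes the DTx and untreated libraries overlapped. The log2 fold change was negative in 6 of the 7, with a median of -0.14, beside 6761 of the 16381 genes tested and a median of 0.03 over all of them. The 6 include Egr3, whose value lay next to 0 and was negative in 12 of 17 alternative settings. In the narrow pair all 7 were negative. That pair sets a single DTx library against a single untreated library. The share of all genes tested that were negative in it was not computed. The count in the narrow pair therefore cannot be read as particular to these genes.

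**Figure D4:**
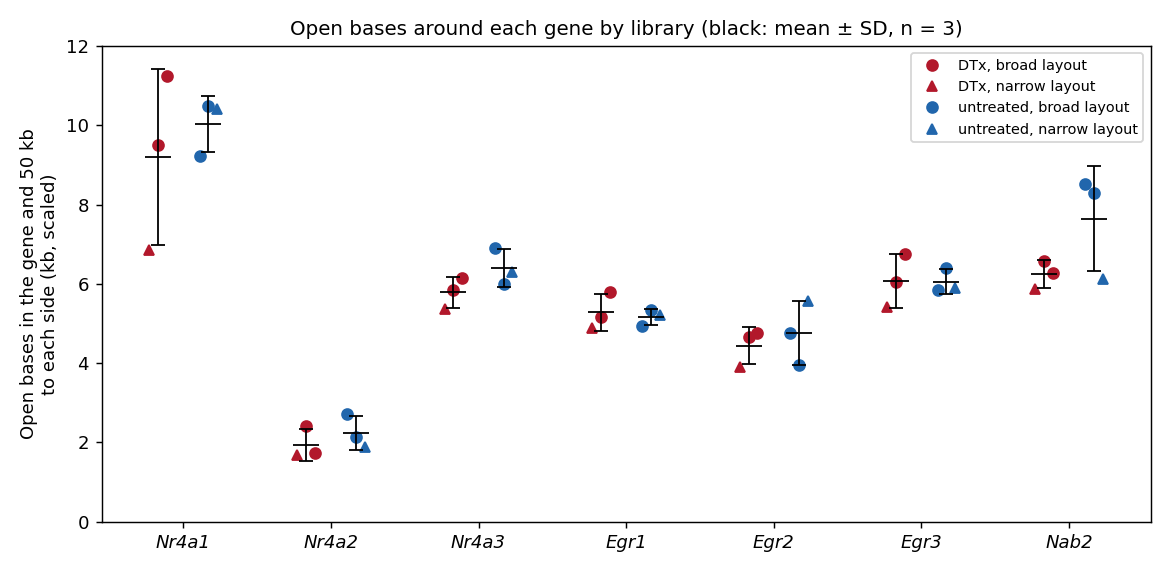
The vertical axis gives open bases in each gene and 50 kb to each side (kb, equal-length lists, scaled to a common total); points are libraries, circles the broad and triangles the narrow layout, and black bars the mean ± SD of 3 libraries. The DTx and untreated points overlap for each of the 7 genes, with Nr4a2 lowest and Nr4a1 highest.

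In the wider pathway limma called no gene, and the lists differed in the share of genes with a peak at a gene end in each of the 6 libraries, which was 49.2% over all protein-coding genes. Of 7 family members and cofactors, 3 had one, among them Nab1, the paralogue of Nab2, at a median percentile of 62.5, and Chd4, a remodeller that NAB2 recruits, at 83.3. Rxrg and Hdac7 were called at a gene end in none, though Hdac7 had enough open bases around it to be tested. Egr4, the remaining EGR gene, had a gene-end peak in 2 of the 3 DTx and in 1 of the 3 untreated libraries and had too few open bases to be tested. Rxra, which encodes a retinoid receptor that pairs with Nr4a1 and Nr4a2 proteins, had one in no DTx library and in 1 of the 3 untreated libraries. By limma its open bases differed by -0.91 ± 0.36 (log2, SE, unadjusted p = 0.0371, adjusted 0.997) and those of Nab1 by 0.17 ± 0.16 (adjusted p = 0.997).

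Of 20 genes of the upstream signal, 16 were called at a gene end in all 6 libraries and Nfatc2, Stim1, Mef2a and Mef2c in none. No gene differed between groups in the number of libraries. As for Egr2, a 0 at the gene ends does not show that a gene lacks an open start site. Nfatc2, Stim1, Mef2a and Mef2c each had enough open bases in the gene and 50 kb to each side to be tested. Peaks at their start sites were not examined. The 2 with the lowest limma p were Creb1, which encodes a factor that binds the cAMP response element, at 0.35 ± 0.11 (log2, SE, unadjusted p = 0.0162), and the ERK1 gene Mapk3 at -0.32 ± 0.12 (unadjusted p = 0.0244), both with an adjusted p of 0.997. Of 20 target and tolerance genes, 14 were called at a gene end in all 6 libraries and Rnf128 in none, with the same limit for Rnf128. Cblb, a ubiquitin ligase of anergy, had the strongest gene-end peak of the list, at percentile 99.3 or above in each library, and Rcan1, an NFAT-induced inhibitor of calcineurin, stood at 97.1 or above. The chemokine genes Ccl3 and Ccl4, which share a peak, had it in every DTx library and in untreated libraries 1 and 3, and were at 0 in untreated library 2. It was at percentiles 5.30, 17.1 and 69.9 in DTx libraries 1, 2 and 3 and at 1.31 and 22.7 in untreated libraries 1 and 3. Several of these calls lay close to the floor of their lists. The lowest limma p belonged to Rcan1 (-0.39 ± 0.20, log2, SE, unadjusted p = 0.0921) and Tox (-0.72 ± 0.38, unadjusted p = 0.0953), both at an adjusted p of 0.997. The median log2 fold change was -0.06 for the 5 family genes tested, 0.04 for the 20 upstream genes and 0.09 for the 20 targets, beside 0.03 over all genes tested. limma called 0 genes of each list, and at an unadjusted p under 0.05 it had 1, 2 and 0.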

How the data were processed

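ATAC-seq of 3 DTx and 3 untreated libraries of splenic immature B cells was analysed from the peak lists the authors deposited, 1 per library. Per the submitters' processing notes, Trim Galore 0.4.3, Bowtie2 2.3.2 and MACS2 2.1.1 were used with mm10. No source used here gives the Tn5 shift, the treatment of duplicates or the read totals, so depth is unknown and no counting interval is given; 3 libraries in each group limit the precision. Per the file headers, each peak has a pileup signal and a fold enrichment ratio. The 2 remaining deposited columns have damaged headers and were read, from their order and values, as −log10 p and −log10 q. DTx library 1 and untreated library 3 have the narrow layout, the other 4 the broad one.

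From each list 2 mitochondrial peaks were left out. Gene extents came from RefSeq (GRCm38.p6), without exons. Open bases were tested with limma 3.58.1 (trend, robust) in R 4.3.3 on log2(bases + 100), for the 16381 genes with a mean of at least 500 bases, with Benjamini-Hochberg adjustment at 0.05 over all of them. The step was tested on simulated data. The rest used Python 3.11.15, NumPy 2.4.6, pandas 2.3.3 and matplotlib 3.10.9, and is descriptive. The alternatives changed the peak list, scaling, measure, pseudocount, filter, window, peak threshold, overlap, covariates and libraries.

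The members and the lists were chosen with earlier results of these data known. Named genes are all 7 members, the 2 genes most like the member of highest and of lowest median gene-end percentile, and, from each pathway list, the genes called in unequal numbers of DTx and untreated libraries and the 2 of lowest limma p. Nab1, Chd4, Rxrg, Hdac7, Cblb, and the upstream and target genes given at 0 were named in addition after their values were seen. A further marker of the B lineage list is not reported here.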

Additional observations from a re-analysis of the deposited data

How the results depend on the processing

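Under each of the 17 alternatives to the open-bases fit limma's lowest adjusted p for a member was 0.741, and it called no gene except when the number of peaks replaced open bases, with 60 genes higher and 28 lower in DTx of 12570 tested (393 at an unadjusted p under 0.05). The cause was not tested. No member was called in any setting, and the signs of their small log2 fold changes depended on the settings. With the number of peaks they were 0.0794 for Nr4a1, 0.0535 for Egr3 and 0.0153 for Nab2, while Nr4a2 had too few peaks to enter that fit. With a window of 25 kb they were 0.13 for Nr4a1, 0.0346 for Egr2 and 0.0449 for Egr3, and with 100 kb 0.0396 for Nr4a2 and -0.0028 for Egr1. Egr1 was at -0.15 with peaks of −log10 q of at least 5 and at -0.0160 unscaled, and Egr3 at 0.0031 with the deposited lists. Without 1 library at a time the ranges were -0.31 to 0.0445 for Nr4a1, -0.0406 to 0.0807 for Egr1, -0.22 to 0.0285 for Egr2 and -0.0791 to 0.0783 for Egr3, while Nab2 (-0.42 to -0.19), Nr4a2 (-0.36 to -0.06) and Nr4a3 (-0.19 to -0.09) kept their sign. The median shift of all genes lay between -0.05 and 0.05.

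The fit with the replicate number as a block (replicate block) called 0 genes higher and 0 lower, with 1111 at an unadjusted p under 0.05. Deviations of same-numbered libraries correlated at 0.44, 0.04 and 0.28 for numbers 1, 2 and 3 over 16381 genes. DTx library 1 correlated best with its own number. DTx library 3 correlated about equally with untreated libraries 3 and 2 (0.28 and 0.27). DTx library 2 was close to 0 with each untreated library (-0.07, 0.04 and 0.05 with 1, 2 and 3). The labels name no pairing and the value for number 2 was under 0.1, so the libraries were treated as unpaired, which does not show that they are. With the layout of the list as a term there were again 0 calls (590 genes at an unadjusted p under 0.05).

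Within 2 kb of a gene end the mean number of members called was 6.67 in DTx and 6.33 in untreated libraries. At RefSeq start sites, an alternative chosen after seeing the data, it was 4.67 in DTx and 5 in untreated libraries, of 5 members. Leaving out 1 library, the DTx mean ran between 5.50 and 6, and was 6 without DTx library 1. Group-only regions numbered 1 DTx-only and 1 untreated-only in the equal-length lists, and 1 DTx-only with −log10 q of at least 5, inside Nr4a2. That region, 57116814 to 57117816, was called in all 6 deposited lists. Its −log10 q was 2.32, 3.53 and 4.83 in untreated libraries 1, 2 and 3, under the threshold. Leaving out 1 library gave 0 to 1 DTx-only, with 1 without DTx library 1 and 1 without DTx library 3, and 47 to 53 regions in every library. For the threshold and the left-out libraries the share over all regions was not computed. The gap between the highest and the lowest median gene-end percentile of the members was 89.2 by −log10 q and 52.9 by fold enrichment. Egr2, without a gene-end peak, was the lowest at 0 by both measures. The gap is therefore the median of the highest member, Nr4a3 by −log10 q and Nr4a2 by fold enrichment.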
